A study of Homo sapiens with 6 samples.

Results

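The Notch pathway genes described here are 10 genes of the deposited expression table, chosen by gene symbol: the receptors NOTCH1, NOTCH2, NOTCH3 and NOTCH4, the ligands JAG1, JAG2, DLL1 and DLL4, and the target genes HES1 and HEY1. All 10 symbols were found, each on a single row, among the 35856 genes listed. RNA was sequenced from 6 libraries of HCCLM3, an established human hepatocellular carcinoma cell line whose cell type is labelled as hepatoma cells. In 3 libraries the cells had been transfected with a LINC00862 vector, and in the other 3 with a vector carrying no insert. The first group is called LINC00862 below. The control group, NC in the sample labels, is called Empty, and both groups therefore share the transfection and the vector. The study names pcDNA3.1 as the LINC00862 vector and describes stably transfected cells only for its mouse experiments, so whether the sequenced cells were a stable line, and whether the 3 libraries of a group came from separate cultures, is not given in the sources used here. The p-values below then measure the spread between these libraries, which may be technical.

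Notch signaling passes between neighbouring cells. A ligand of the Jagged or Delta-like type on one cell binds a Notch receptor on the next, and the ligand is then pulled back into its own cell. The bound receptor is cut by the protease ADAM10 and then inside the membrane by γ-secretase, and the freed intracellular domain enters the nucleus. There it joins the DNA-binding protein RBPJ and a Mastermind-like co-activator and switches on target genes, of which the transcriptional repressors of the HES and HEY families are the best known. In liver, the pair JAG1 and NOTCH2 is known for its part in bile duct formation.

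Sequencing depth was similar in all libraries, with total counts between 58241123 and 68229070. LINC00862 itself had counts of 11, 21 and 6 in the Empty libraries and reached 145, 121 and 76 in the libraries labelled LINC00862, a 9.33-fold rise (log2 fold change 3.22, standard error 0.53, adjusted p = 0.000583 by edgeR's quasi-likelihood test, and 3.83 without Empty replicate 2). The markers of the labelled cell type differed between the groups. Of 8 hepatocyte markers (ALB, AFP, APOA1, APOB, TTR, SERPINA1, FGB and TF), 7 could be tested, and 5 were higher and 2 lower in LINC00862, next to 64.2% of all genes tested that were called (34.4% higher and 29.8% lower). Their summed level lay between 3.05 and 3.59 FPKM in Empty and between 539 and 618 FPKM in LINC00862, where FGB alone averaged 550.4 FPKM. ALB, the defining marker, averaged 0.00780 FPKM in Empty and 1.51 FPKM in LINC00862. The markers that fell were SERPINA1, which averaged 1.29 FPKM for Empty against 0.0950 FPKM for LINC00862, and AFP, with 0.104 FPKM in Empty and 0 counts in each LINC00862 library. FPKM is the number of fragments of a gene divided by its transcript length and by the depth of the library, so levels of different genes can be compared. Of the 6 epithelial markers 5 were higher and 0 lower, and of the 6 biliary markers 4 were higher and 0 lower. The summed level of the biliary markers, most of it KRT7, overlapped between the groups, with 53.9 to 84.0 FPKM in Empty and 74.6 to 97.5 FPKM in LINC00862, and SOX9, also known from biliary cells, fell. Several Notch genes are also known from vessels. Of 8 endothelial markers 7 could be tested, 1 was higher (CDH5) and 0 were lower, and their summed level was 1.40 to 2.01 FPKM in Empty and 4.61 to 6.05 FPKM in LINC00862. The smooth muscle and pericyte markers summed to 23.2 to 31.2 FPKM in Empty and 1.20 to 1.32 FPKM in LINC00862, with 0 higher and 3 lower (ACTA2, PDGFRB and CSPG4). Of 6 blood cell markers, CD14 was higher and the other 5 were not called, and HBB made up most of their sum with 778.9 FPKM in Empty and 550.9 FPKM in LINC00862. The part of these differences in the results below was not tested. Whether the libraries of both groups held the same cell population was not tested either, and a difference between populations cannot be told apart from an effect of the vector in the fold changes below. In bulk RNA, a smaller number of cells of a type and less RNA per cell cannot be told apart.

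Of the 10 Notch genes, 6 rose in LINC00862 (NOTCH3, JAG2, DLL1, DLL4, HES1 and HEY1), 2 fell (NOTCH2 and JAG1) and 2 were not called (NOTCH1 and NOTCH4). A call here is an adjusted p under 0.05 from edgeR's quasi-likelihood test over all 20741 genes tested. Differences between the groups were common in these data. Among all genes tested, 64.2% were called, 34.4% as higher and 29.8% as lower, and the counts for the 10 Notch genes have to be read against these shares. In FPKM, 8 Notch genes had no overlap of the groups, 6 with the higher values in LINC00862 and 2 with the lower. The same held for 71.1% of all genes tested, 34.4% higher and 36.6% lower. Levels below are FPKM, and fold changes are those fitted to the TMM-scaled counts unless another scale is named. All 10 genes passed the filter on low counts, but NOTCH3 and DLL4 did so only through the LINC00862 libraries, since some of their Empty libraries lay under the limit. Without Empty replicate 1, 7 genes were called, the 6 rises and NOTCH2, next to 14285 of the 21811 genes tested in that fit.

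**Figure D1:**
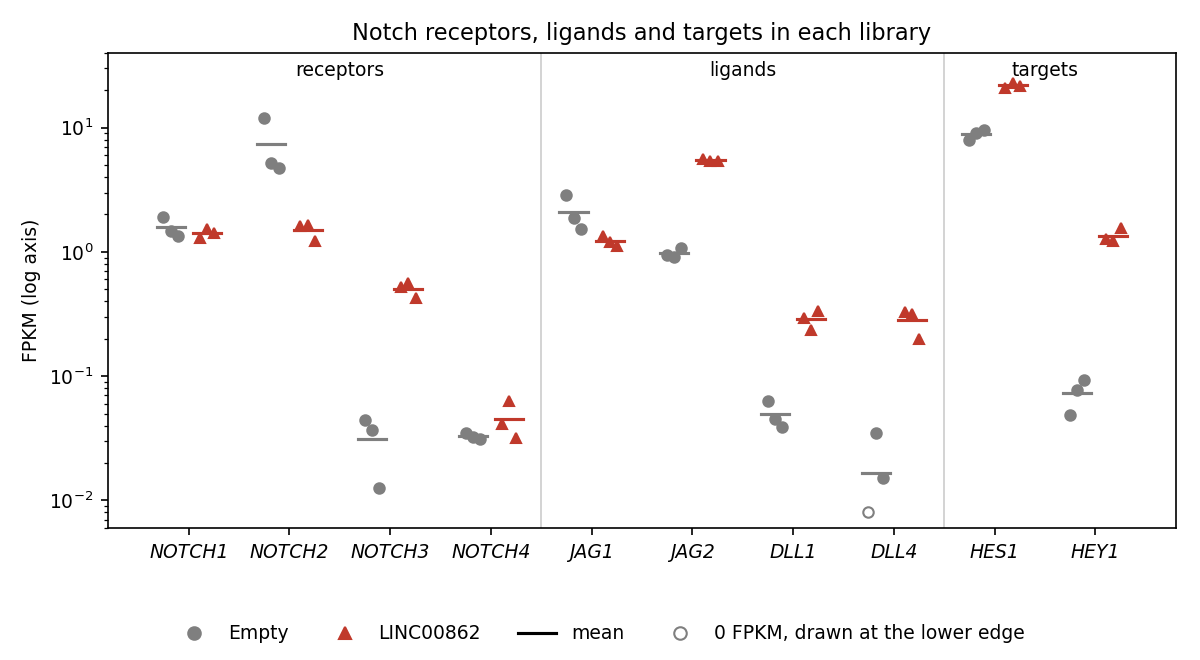
FPKM of the 10 Notch genes in each library, on a log axis, with Empty libraries as grey circles, LINC00862 libraries as red triangles and horizontal lines at the group means (n = 3 each). The groups overlap for NOTCH1 and NOTCH4 and are apart for the other 8 genes, with NOTCH2 and JAG1 higher in Empty and the other 6 higher in LINC00862.

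NOTCH2 (ENSG00000134250, minus strand of chromosome 1, 119911553 to 120069662, hg38) was the most abundant receptor gene in Empty. Its level was 12.0, 5.19 and 4.74 FPKM in Empty replicates 1 to 3 and 1.61, 1.66 and 1.22 FPKM in LINC00862 replicates 1 to 3, the order used for all values by library. Every LINC00862 library lay below every Empty library, and Empty replicate 1 stood 2.42 times above the mean of the other 2 Empty libraries. The level fell 4.26-fold in LINC00862 (log2 fold change -2.09, standard error 0.31, adjusted p = 0.000302 by edgeR), and the value was -1.61 when Empty replicate 1 was left out.

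NOTCH2 has near-identical partial copies on chromosome 1, the NOTCH2NL genes, which may share reads with it. Several of them encode short secreted proteins resembling the start of the receptor. Of the 4 copies in the table, NOTCH2NLB fell (log2 fold change -2.64, standard error 0.36, adjusted p = 0.000214 by edgeR). NOTCH2NLR had counts of 14, 27 and 31 in Empty and 0 in each LINC00862 library, which is at least 7.57-fold lower when LINC00862 is put at 3 counts per library. NOTCH2NLA and NOTCH2NLC were not called, with log2 fold changes of -0.24 and -0.43. With the counts of all 4 copies added to those of NOTCH2, a setting chosen after the data were seen, NOTCH2 had a log2 fold change of -1.75 with a standard error of 0.25 (adjusted p = 0.000296 by edgeR). In GENCODE 29 (GRCh38), the longest NOTCH2 transcript was compared with NOTCH2NLA in windows of 150 bases. Of its 11240 windows, 101, or 0.899%, were identical to a stretch of a NOTCH2NLA transcript. All lay between bases 282 and 531 of the NOTCH2 transcript. NOTCH2NLB, NOTCH2NLC and NOTCH2NLR were not compared in this way.

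NOTCH1 (ENSG00000148400, minus strand of chromosome 9, 136494433 to 136546048) differed by less than the spread between libraries. Its FPKM was 1.92, 1.48 and 1.34 in Empty and 1.28, 1.51 and 1.42 in LINC00862. The values overlapped, and the log2 fold change of 0.015 had a standard error of 0.17 (adjusted p = 0.943 by edgeR) and a sign that changed between settings. NOTCH3 (ENSG00000074181, minus strand of chromosome 19, 15159038 to 15200995), the receptor best known from vascular smooth muscle, was low in Empty with counts of 28, 23 and 8. In LINC00862 it had counts of 378, 348 and 273. Its level of 0.0312 ± 0.0165 FPKM (SD, n = 3) for Empty stood against 0.503 ± 0.0670 FPKM (SD, n = 3) for LINC00862, and the groups did not overlap. The rise was 18.0-fold (log2 fold change 4.17, standard error 0.43, adjusted p = 3.65e-05 by edgeR). Even after this rise NOTCH3 remained below NOTCH1 and NOTCH2 in FPKM in every LINC00862 library.

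NOTCH4 (ENSG00000204301, minus strand of chromosome 6, 32194843 to 32214237), a receptor known mainly from endothelial cells, had between 21 and 41 counts in all 6 libraries. Its log2 fold change of 0.60 had a standard error of 0.47 (adjusted p = 0.286 by edgeR), and the groups overlapped. No difference was called. GPSM3, a neighbour on the same strand, overlaps NOTCH4 by 681 bases. It fell 6.87-fold, from 428, 538 and 740 counts in Empty to 83, 78 and 73 counts in LINC00862 (adjusted p = 4.76e-05 by edgeR). How reads in the overlap were assigned is not given in the sources used here.

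The make-up of the receptor transcripts differed accordingly. NOTCH2 made up 85.7%, 77.0% and 77.3% of the summed receptor FPKM across the Empty libraries, and 46.5%, 43.7% and 39.3% across those of LINC00862. The share of NOTCH1 was 19.2% ± 4.78 (SD, n = 3) for Empty against 41.0% ± 4.48 (SD, n = 3) for LINC00862, although its own level did not differ beyond the spread. NOTCH3 took 0.356% ± 0.173 (SD, n = 3) for Empty against 14.5% ± 0.663 (SD, n = 3) for LINC00862. NOTCH4 stayed under 2% in each library. Such shares do not depend on the scaling of the libraries. None of the receptor shares overlapped between the groups, and the exact two-sided permutation test gave p = 0.1 for each, the smallest p that 3 libraries against 3 allow (adjusted p = 0.1 over 8 shares). The shares of a library add up to a whole, so a fall in the NOTCH2 share raises the others. The level of NOTCH4 itself overlapped between the groups and was not called. From counts in place of FPKM, the gain in the NOTCH3 share was 9.32 percentage points in place of 14.2.

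Among the ligands, JAG2 (ENSG00000184916, minus strand of chromosome 14, 105140982 to 105168824) rose with little spread. Its FPKM was 0.948, 0.910 and 1.08 in Empty and 5.60, 5.36 and 5.37 in LINC00862. The groups were far apart compared with the range within either, and the rise was 6.25-fold (log2 fold change 2.64, standard error 0.16, adjusted p = 1.41e-06 by edgeR). JAG1 (ENSG00000101384, minus strand of chromosome 20, 10637684 to 10673999), the other Jagged ligand, moved the opposite way. It had 2.85, 1.88 and 1.53 FPKM in Empty and 1.35, 1.21 and 1.12 FPKM in LINC00862. The groups did not overlap, but the lowest Empty library and the highest LINC00862 library were close. JAG1 fell 1.49-fold (log2 fold change -0.57, standard error 0.21, adjusted p = 0.0373 by edgeR). This call was lost in 10 of the 14 alternative fits, among them the fit without Empty replicate 1 (log2 fold change -0.35, adjusted p = 0.0896 by edgeR) and upper quartile scaling (log2 fold change -0.36, adjusted p = 0.149). Among the fits without 1 library the call held only without Empty replicate 3, and adjusted p was 0.0631 without Empty replicate 2 and 0.0713, 0.116 and 0.0973 without LINC00862 replicates 1, 2 and 3. The direction held in all 14.

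The Delta-like ligands were low in both groups and higher in LINC00862. DLL1 (ENSG00000198719, minus strand of chromosome 6, 170282206 to 170306565) had counts of 16, 12 and 11 in Empty and 87, 59 and 86 in LINC00862. Its rise was 6.37-fold (log2 fold change 2.67, standard error 0.43, adjusted p = 0.000561 by edgeR), and no LINC00862 library came near the Empty range. FAM120B overlaps DLL1 on the opposite strand over 15863 bases. It had far more counts than DLL1 (964 to 1270 in Empty, 453 to 587 in LINC00862) and fell by 0.88 on the log2 scale (adjusted p = 0.00178 by edgeR). The library protocol kept the strand of the RNA, but whether the counting used it is not given in the sources used here.

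DLL4 (ENSG00000128917, plus strand of chromosome 15, 40929340 to 40939073), the Delta-like ligand known from sprouting vessels, had counts of 0, 11 and 6 in Empty and 119, 101 and 64 in LINC00862. An Empty count of 0 allows up to 3 counts in that library. The level was 0.0167 ± 0.0175 FPKM (SD, n = 3) for Empty against 0.282 ± 0.0702 FPKM (SD, n = 3) for LINC00862, without overlap. The rise was 16.9-fold (log2 fold change 4.08, standard error 0.83, adjusted p = 0.00205 by edgeR). Its size rested on single Empty libraries, with a log2 fold change of 3.48 without Empty replicate 1 and 4.99 without Empty replicate 2.

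The leading ligand differed between the groups. JAG1 made up 73.8%, 65.5% and 57.4% of the summed ligand FPKM across the Empty libraries and 17.9%, 16.9% and 15.9% across those of LINC00862. JAG2 made up 24.5%, 31.7% and 40.5% in Empty and 73.9%, 75.3% and 76.4% in LINC00862. DLL1 went from 1.56% ± 0.0771 (SD, n = 3) to 3.98% ± 0.753 (SD, n = 3), and DLL4 from 0.595% ± 0.608 (SD, n = 3) to 3.88% ± 0.891 (SD, n = 3). Each of these 4 shares was apart between the groups (exact two-sided permutation test, p = 0.1, the smallest p possible). The ligand shares also add up to a whole and do not move independently. From counts the gain of DLL1 was 1.51 percentage points in place of 2.42. The summed level of the 4 ligands was 3.87, 2.87 and 2.66 FPKM in Empty and 7.58, 7.12 and 7.03 FPKM in LINC00862. That of the 4 receptors was 14.0, 6.75 and 6.13 FPKM in Empty and 3.45, 3.80 and 3.10 FPKM in LINC00862. The ratio of ligand to receptor FPKM was 0.378 ± 0.0891 (SD, n = 3) for Empty against 2.11 ± 0.209 (SD, n = 3) for LINC00862, and no library crossed over (exact two-sided permutation test, p = 0.1).

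**Figure D2:**
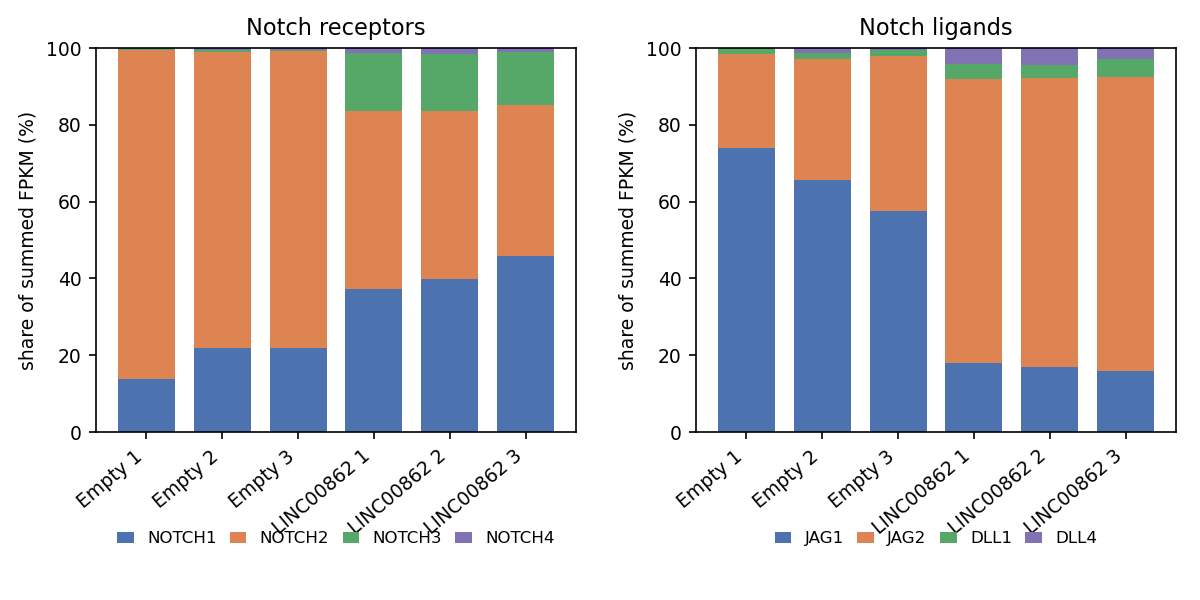
Share of each receptor gene (left) and each ligand gene (right) in the summed FPKM of its family, in percent, as 1 stacked bar per library. NOTCH2 fills 77.0% to 85.7% of the receptor bar in Empty and 39.3% to 46.5% in LINC00862, and the larger part of the ligand bar is JAG1 in Empty and JAG2 in LINC00862.

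HES1 (ENSG00000114315, plus strand of chromosome 3, 194136148 to 194138732), a repressor of the basic helix-loop-helix class and the most widely used readout of Notch signaling, was the most abundant of the 10 genes in both groups by mean FPKM. Its FPKM was 7.98, 9.12 and 9.55 in Empty and 20.9, 22.9 and 21.8 in LINC00862. The lowest LINC00862 library lay well above the highest Empty library. The rise was 2.77-fold (log2 fold change 1.47, standard error 0.16, adjusted p = 4.78e-05 by edgeR).

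Promoter sequence was compared for 8 of the 10 genes, with start sites from the RefSeq table used here (GRCh38.p14). The promoters of the ligand gene DLL1 and the target gene HEY1 were not searched, so the counts below leave them out. HES1 was the only target gene searched, so these counts cannot show whether a match is particular to it among target genes. The 250 bases before each start site were searched on both strands for GTGGGAA, the preferred binding sequence of RBPJ, for its core TGGGAA, which lies within every GTGGGAA, and for CACGTG, the E-box core bound by many basic helix-loop-helix proteins. GTGGGAA was present in 1 of the 8 promoters, that of HES1, and in 5.46% of all 27305 promoters. Among the 8 searched, TGGGAA was found in the same promoter only, at 2 places, 84 to 79 and 70 to 65 bases before the start. Of all promoters, 2.92% held it 2 or more times (21.1% at least once). CACGTG was found in 0 of the 8 and in 6.49% of all promoters. These are matches of letters and show no binding. The upstream sequences of HES1 (chr3:194135898-194136147, plus strand), of NOTCH2, the leading receptor in Empty (chr1:120069663-120069912, minus strand), and of JAG2, the leading ligand in LINC00862 (chr14:105168777-105169026, minus strand), are shown 5′ to 3′ with TGGGAA in capitals. HES1 had the highest mean FPKM of the 10 genes in both groups. The largest rises were those of other genes, HEY1, NOTCH3 and DLL4. The JAG2 RefSeq start lies 48 bases from the start in the deposited table. For NOTCH4, also among the 8 searched, this distance is 9830 bases.
HES1: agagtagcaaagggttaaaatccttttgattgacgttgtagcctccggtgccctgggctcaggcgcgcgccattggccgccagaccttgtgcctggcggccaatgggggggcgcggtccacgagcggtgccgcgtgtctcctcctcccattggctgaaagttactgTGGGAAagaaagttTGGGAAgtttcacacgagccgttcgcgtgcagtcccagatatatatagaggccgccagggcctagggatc
NOTCH2: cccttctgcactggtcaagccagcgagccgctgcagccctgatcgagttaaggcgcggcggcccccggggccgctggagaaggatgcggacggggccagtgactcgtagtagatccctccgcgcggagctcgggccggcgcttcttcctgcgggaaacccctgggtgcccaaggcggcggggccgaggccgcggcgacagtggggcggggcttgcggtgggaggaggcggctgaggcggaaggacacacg
JAG2: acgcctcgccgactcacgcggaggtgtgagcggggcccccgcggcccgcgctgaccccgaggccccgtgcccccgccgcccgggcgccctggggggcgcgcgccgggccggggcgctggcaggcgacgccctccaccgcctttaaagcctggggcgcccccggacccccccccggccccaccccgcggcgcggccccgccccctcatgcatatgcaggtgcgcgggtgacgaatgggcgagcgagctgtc
The letters in capitals occur only in HES1. GC content was 59.2% in the HES1 window, 72.8% in that of NOTCH2 and 81.6% in that of JAG2, against a median of 58.0% over all promoters.

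HEY1 (ENSG00000164683, minus strand of chromosome 8, 79762371 to 79767857), the related repressor, rose from a much lower level. It had counts of 18, 28 and 35 in Empty and 536, 443 and 571 in LINC00862. In FPKM this was 0.0732 ± 0.0227 (SD, n = 3) against 1.34 ± 0.177 (SD, n = 3). The rise of 20.3-fold (log2 fold change 4.35, standard error 0.36, adjusted p = 8.74e-06 by edgeR) stood next to the log2 fold changes of 4.17 for NOTCH3 and 4.08 for DLL4, and the standard errors of these 3 values are too wide to order them.

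**Figure D3:**
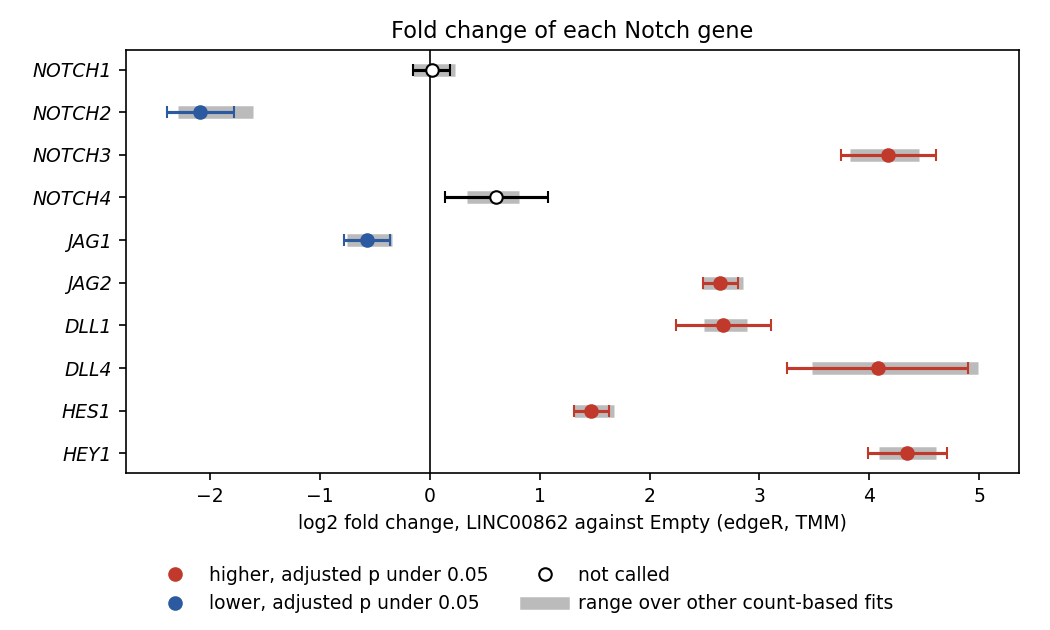
Fitted log2 fold change of each Notch gene, LINC00862 against Empty, with points for the TMM-scaled edgeR fit, error bars of 1 standard error and grey bars for the range over the other fits to counts, including those without 1 library. The 6 rises lie between 1.47 and 4.35, NOTCH2 is at -2.09, and the bars of NOTCH1 and NOTCH4 reach or come near 0.

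The order of the genes by FPKM also differed. In Empty it ran from HES1 (8.88 FPKM on average) and NOTCH2 (7.32) through JAG1 (2.09), NOTCH1 (1.58) and JAG2 (0.978) to HEY1 (0.0732), DLL1 (0.0492), NOTCH4 (0.0327), NOTCH3 (0.0312) and DLL4 (0.0167). The ranges over libraries overlapped between the neighbours HES1 and NOTCH2, JAG1 and NOTCH1, HEY1 and DLL1, NOTCH4 and NOTCH3, and NOTCH3 and DLL4. Of these pairs only JAG1 and NOTCH1 kept their order within each Empty library, with JAG1 above NOTCH1. The other pairs cannot be ordered. In LINC00862 the order was HES1 (21.9 FPKM), JAG2 (5.45), NOTCH2 (1.49), NOTCH1 (1.41), HEY1 (1.34), JAG1 (1.23), NOTCH3 (0.503), DLL1 (0.288), DLL4 (0.282) and NOTCH4 (0.0453). Here NOTCH2, NOTCH1, HEY1 and JAG1 overlapped from neighbour to neighbour, as did DLL1 and DLL4, while HES1 and JAG2 stood apart from the rest.

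Which other parts of the pathway differed was examined in 7 lists of genes for its remaining steps, with 79 genes in the table and 76 tested. Of these 16 rose, 32 fell and 28 were not called, and their median log2 fold change was -0.28, against 0.11 over all genes tested. With upper quartile scaling these medians were -0.074 and 0.32, and with library size scaling -0.44 and -0.051. Of the 76 genes, 6 passed the filter on low counts only through the LINC00862 libraries (CNTN1, MFAP5, DTX1, HES2, HEY2 and HEYL) and 0 only through Empty, so the counts of rises are no support for a direction. The medians of the single lists rest on few genes, and those that moved by over 1.5 times without 1 library are given with that value. The 48 called genes are 63.2% of the 76, near the 64.2% of all genes tested. The rises and falls of each list below have to be read against the shares over all genes tested, 34.4% higher and 29.8% lower. The Notch signaling pathway as the deposited table takes it from KEGG holds 46 genes, of which 45 were tested, 11 rose and 19 fell. It includes 9 of the 10 genes above (not HEY1) and 34 genes of the 7 lists.

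The sugar-adding enzymes that modify the receptor mostly fell. Of 11 tested genes 10 fell and 1 rose, with a median log2 fold change of -1.33. POGLUT2, which adds O-linked glucose to EGF-like repeats, fell 6.17-fold (adjusted p = 1.98e-06 by edgeR), and EOGT, which adds O-linked N-acetylglucosamine, fell 5.86-fold (adjusted p = 5.03e-06). GXYLT2, which extends the glucose with xylose, fell 6.17-fold (adjusted p = 3.92e-05). The exception was LFNG, the Fringe enzyme that extends O-fucose and alters which ligand a receptor responds to. It had 52, 57 and 70 counts in Empty and 340, 295 and 265 counts in LINC00862, a 5.32-fold rise (adjusted p = 8.43e-05 by edgeR). Its relatives MFNG and RFNG were among the falls, as was POFUT1, which adds the O-fucose itself.

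The proteases that cut the receptor were mixed, with 3 rises, 2 falls and 4 genes not called among 9 (median log2 fold change 0.23, but 0.15 without Empty replicate 2 and 0.10 and 0.38 without LINC00862 replicates 2 and 3). APH1A, a γ-secretase subunit, rose 2.62-fold (adjusted p = 7.64e-05 by edgeR), and its relative APH1B fell 2.28-fold (adjusted p = 0.000901). PSEN2, a catalytic subunit, rose 1.78-fold (adjusted p = 0.00275). NCSTN, a further subunit, rose 1.37-fold (adjusted p = 0.024 by edgeR), but its FPKM overlapped between the groups and the call was lost in 9 of the 14 alternative fits. These were library size scaling (log2 fold change 0.29, adjusted p = 0.192), the replicate block (adjusted p = 0.0594), both limma-trend fits (adjusted p = 0.209 and 0.208), the test against a fold change of 2, and the fits without Empty replicate 2 or 3 or LINC00862 replicate 1 or 2 (adjusted p of 0.0544 to 0.117). ADAM10 fell 1.80-fold (adjusted p = 0.0106), with counts of 8797, 4846 and 4052 in Empty and 3365, 3022 and 2698 in LINC00862.

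Genes for ligand endocytosis and receptor turnover gave 2 rises, 6 falls and 6 genes not called among 14 (median log2 fold change -0.41, but -0.70 without Empty replicate 1 and -0.63 without LINC00862 replicate 1). DTX2, a Deltex ubiquitin ligase, fell 5.72-fold (adjusted p = 1.43e-05 by edgeR), CBL fell 3.80-fold (adjusted p = 0.000235) and NEURL1B, a ubiquitin ligase acting on ligands, fell 3.16-fold (adjusted p = 0.000117). AAK1, an endocytic kinase, rose 2.01-fold (adjusted p = 0.000775). The other rise was that of DTX1, named after its values were seen because it lay under the limit of 1 FPKM. DTX1 had 0 counts in each Empty library and 174, 97 and 77 in LINC00862, at least 40.2-fold higher with Empty put at 3 counts per library.

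In the nuclear complex, 1 gene rose, 4 fell and 4 were not called among 9 (median log2 fold change -0.33, but -0.59 without Empty replicate 3). The 3 Mastermind-like co-activators did not move together. MAML2 fell 23.1-fold, from 856, 346 and 314 counts to 20, 27 and 13 (adjusted p = 3.65e-05 by edgeR), and MAML1 fell 3.05-fold (adjusted p = 0.000156). MAML3 rose 9.81-fold, from 155, 40 and 32 counts to 717, 755 and 554 (adjusted p = 0.000512), and its log2 fold change of 3.29 became 4.27 without Empty replicate 1. KAT2B, a histone acetyltransferase, fell 3.97-fold (adjusted p = 3.11e-05). RBPJ, named after its values were seen as the factor on which the complex is built, fell 2.48-fold (adjusted p = 0.000111), from 8.53 ± 1.94 FPKM (SD, n = 3) to 3.02 ± 0.364 FPKM (SD, n = 3).

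Of the 16 co-repressors, which hold Notch targets silent together with RBPJ or act with HES proteins, 1 rose, 6 fell and 9 were not called. Their median log2 fold change was -0.15, but -0.22 without Empty replicate 2 and 0.064 with upper quartile scaling. The histone deacetylases HDAC2 and HDAC1 fell 7.22-fold and 3.59-fold (adjusted p = 3.94e-07 and 3.01e-06 by edgeR). Among the Groucho-type co-repressors TLE4 fell 3.34-fold (adjusted p = 1.33e-05) and TLE2 rose 3.12-fold (adjusted p = 0.000191).

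Further target genes were mixed, with 4 rises, 3 falls and 4 genes not called among 11. The median log2 fold change was 0.26, but 0.037 and 0.40 without Empty replicates 1 and 3, and 0.47 and 0.065 without LINC00862 replicates 2 and 3. NRARP, a feedback inhibitor of the Notch complex, rose 3.69-fold, from 60, 119 and 113 counts to 343, 322 and 352 (adjusted p = 0.00124 by edgeR). CCND1, which encodes cyclin D1, rose 5.27-fold (adjusted p = 3.05e-06). The relatives of HEY1 were the other 2 rises, named after their values were seen since both lay under 1 FPKM. HEYL had counts of 8, 0 and 4 in Empty and 91, 94 and 42 in LINC00862 (log2 fold change 4.30, standard error 0.81, adjusted p = 0.00139 by edgeR), and a log2 fold change of 5.17 without Empty replicate 1. HEY2 had 0 counts in each Empty library and 21, 20 and 15 in LINC00862, at least 6.60-fold higher with Empty at 3 counts per library. SOX9, a transcription factor of biliary and progenitor cells, fell 18.4-fold (adjusted p = 6.91e-07), HES6, which acts against HES1, fell 2.33-fold (adjusted p = 0.00145), and MYC fell 2.31-fold (adjusted p = 4.93e-05). HES4, a relative of HES1 with a higher mean FPKM than HES1 in Empty and named after its values were seen, was not called and had 16.1 ± 3.94 FPKM (SD, n = 3) for Empty against 17.0 ± 4.29 FPKM (SD, n = 3) for LINC00862. Many of these targets also answer to other pathways.

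Among the ligands outside the 4 above, with 6 tested, 4 rose, 1 fell and 1 was not called. The median log2 fold change of 1.96 became 0.78 without Empty replicate 1 and 0.76, 0.82 and 0.73 without LINC00862 replicates 1, 2 and 3. CNTN1 and MFAP5 were tested only because of their LINC00862 counts, and MFAP2, with 10, 33 and 16 counts in Empty and 0, 6 and 7 in LINC00862, was not tested. CNTN1, a contactin described as a Notch ligand, had counts of 4, 0 and 7 in Empty and 967, 875 and 750 in LINC00862 (log2 fold change 7.92, standard error 0.56, adjusted p = 3.2e-06 by edgeR), and its log2 fold change without Empty replicate 3 was 8.79. EGFL7, a secreted protein that binds Notch receptors, rose 9.12-fold (adjusted p = 1.87e-05) and DNER, a transmembrane protein described as a Notch ligand, rose 1.63-fold (adjusted p = 0.00166). DLK2, a non-canonical ligand that lacks the domain for activating receptors, fell 5.08-fold (adjusted p = 0.000103).

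**Figure D4:**
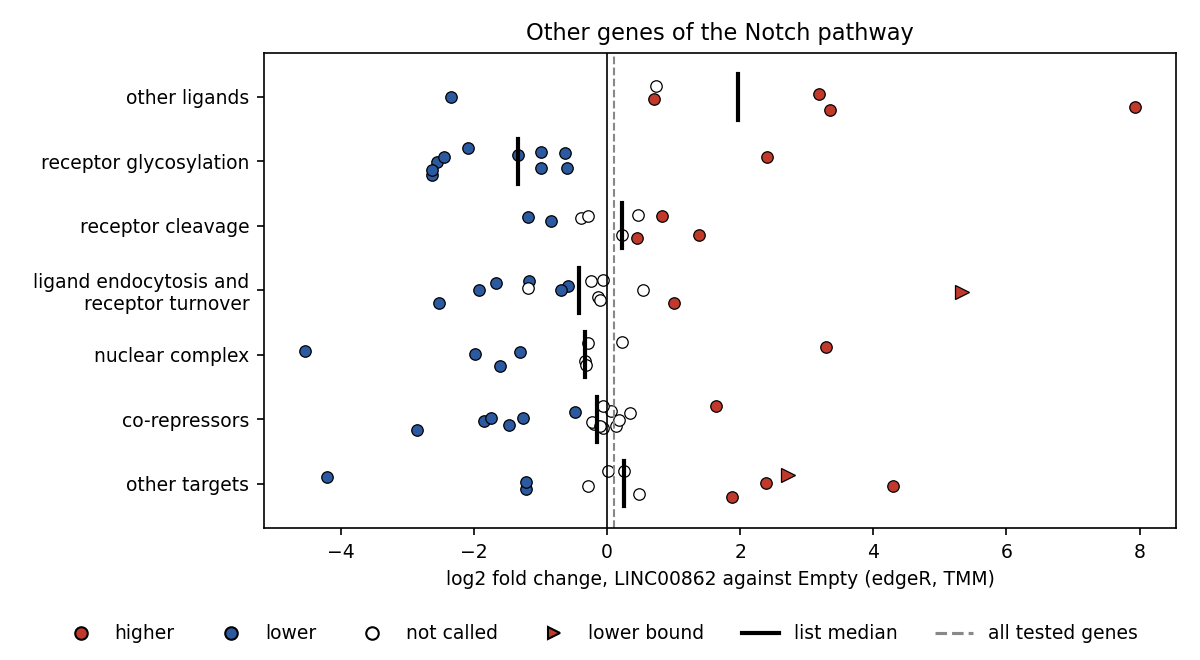
Fitted log2 fold change of each tested gene in 7 lists of other Notch pathway genes, 1 point per gene, with black bars at the list medians and a dashed line at the median of all tested genes (0.11). Triangles mark DTX1 and HEY2, which had 0 counts in Empty and are drawn at their lower bound. The receptor glycosylation genes lie to the left of 0 except LFNG.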

How the data were processed

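Gene-level values of 6 RNA sequencing libraries were used, 3 per group, grouped and numbered by the sample labels. The authors deposited raw read counts per gene, not normalized, next to FPKM values, which they scaled by transcript length and mapped fragments. Per the labels, the libraries were made from polyadenylated RNA with strand marking, and the submitters' processing notes name cutadapt 1.9, HISAT2 2.0.4, UMI-tools, StringTie 1.3.4d, DESeq2 and edgeR, and the build hg38, without their roles. How UMIs and strand entered the counting is not given in the sources used here.

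Counts were analysed here with edgeR 4.0.16 in R 4.3.3 (filterByExpr, TMM, quasi-likelihood test, Benjamini-Hochberg adjustment over the 20741 genes tested, false discovery rate 0.05). Standard errors were derived from the test statistic. Shares and single levels used FPKM with an exact two-sided permutation test, whose smallest p is 0.1. A count of 3 served as the floor, and floors cover counting error only. Same-numbered libraries did not deviate together (correlations of -0.05, -0.03 and -0.01 across genes), and no pair of libraries within a group agreed within counting noise. Alternatives were DESeq2 1.42.0, upper quartile and library size scaling, every gene with at least 1 count, a replicate block, leaving out each library, limma-trend (limma 3.58.1) on log2(FPKM + 1) and log2(FPKM + 0.1), and a test against a fold change of 2. Scripts were tested on simulated data. Figures used Python 3.11.15 and matplotlib 3.10.9.

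The 10 genes and all lists were chosen with earlier results of these data known. Named from each pathway list were up to 3 largest rises and 3 largest falls with an adjusted p under 0.05 and a mean of at least 1 FPKM in a group, with the NOTCH2 copies, overlapping genes and LINC00862. Of the list symbols, DLK1, CNTN6, RBPJL, NOTCH2NL and NOTCH2P1 matched no row, and KDELC1, KDELC2 and KTELC1 are older names of POGLUT2, POGLUT3 and POGLUT1. The protein assays and tissue data of the study were not analysed here.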

Additional observations from a re-analysis of the deposited data

How the results depend on the processing

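The 6 rises (NOTCH3, JAG2, DLL1, DLL4, HES1 and HEY1) and the fall of NOTCH2 held their sign in all 14 alternative fits, with an adjusted p that stayed under 0.05. The number of the 10 genes called as lower was 1 in place of 2, through the loss of JAG1, under upper quartile scaling, every gene with at least 1 count, the replicate block, limma-trend on log2(FPKM + 1) and the test against a fold change of 2, and 1 to 2 in the fits without 1 library. The log2 fold change of JAG1 ranged from -0.75 to -0.35. NOTCH1, never called, was reversed with library size scaling (-0.16), every gene with at least 1 count (-0.00013), limma-trend on log2(FPKM + 1) (-0.10) and on log2(FPKM + 0.1) (-0.15), and lay between -0.054 and 0.12 without 1 library. NOTCH2NLA (-0.39 to 0.040) and NOTCH2NLC (-0.74 to 0.11) also changed sign without 1 library. The cause was not tested.

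The test against a fold change of 2, which asks for more, called 8010 of the 20741 genes tested (3204 lower) and 29 of the 76 pathway genes (18 lower). Shares of summed counts, which are not per length, differed by -28.8 percentage points for NOTCH2, 9.32 for NOTCH3, 1.51 for DLL1 and 2.38 for DLL4, against -36.8, 14.2, 2.42 and 3.28 from FPKM. Limma-trend on log2(FPKM + 1) gave 0.54 for NOTCH3, 0.30 for DLL1, 0.33 for DLL4 and 1.12 for HEY1, since the pseudocount exceeds their Empty level.

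With a replicate block, 7 of the 10 genes were called, next to 12098 of all 20741 genes tested. Equal replicate numbers were not found to pair libraries. Over all genes tested, TMM gave a median log2 fold change of 0.11, DESeq2 one of 0.16, upper quartile scaling 0.32 and library size scaling -0.05, and the called genes that were higher made up 53.6%, 55.1%, 60.4% and 48.5%. Relative to these medians, NOTCH1 lay at -0.10, -0.10, -0.09 and -0.11, and JAG1 at -0.69, -0.69, -0.68 and -0.70. Counts were 41 or fewer for NOTCH4 in all libraries and for NOTCH3, DLL1, DLL4 and HEY1 in Empty, which limits the precision of their fold changes.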

Other observations

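Besides the genes above, the KEGG Notch pathway of the deposited table holds 3 genes of neither the 10 nor the 7 lists, the Dishevelled genes DVL1, DVL2 and DVL3, which are best known as transducers of Wnt signaling and can bind Notch. All 3 fell, as did 29.8% of all genes tested, by 0.83, 1.16 and 0.55 on the log2 scale (adjusted p = 0.000979, 0.00014 and 0.00978 by edgeR's quasi-likelihood test), and their FPKM did not overlap between the groups, like that of 36.6% of all genes tested with lower values in LINC00862. The call of DVL3 was lost with upper quartile scaling (adjusted p = 0.0693) and without LINC00862 replicate 1 (adjusted p = 0.0505). The test against a fold change of 2 called none of the 3. DVL1, the most abundant of them, had 25.3 ± 2.10 FPKM (SD, n = 3) for Empty against 12.7 ± 1.14 FPKM (SD, n = 3) for LINC00862.

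Empty replicate 1 differed from the other 2 Empty libraries in several of the 10 genes. Its FPKM was 2.42 times their mean for NOTCH2, 1.79 for NOTCH3, 1.68 for JAG1, 1.49 for DLL1 and 1.36 for NOTCH1. It was 1.09 times their mean for NOTCH4, 0.955 for JAG2, 0.855 for HES1, 0.568 for HEY1 and 0 for DLL4. NOTCH3, NOTCH4, DLL1, DLL4 and HEY1 had low counts in Empty. Such ratios were not taken over all genes. No technical record of this library was used here, and these ratios are given as values.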
